A study of Mus musculus with 12 samples.

Results

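This account describes 4 poorly annotated mouse genes, Gm5907, 1810009J06Rik, Gm2663 and Gm10684, of the 24439 gene names listed in each RNA-Seq library. They were selected on their level in CD4 T-blast cells after phorbol ester and calcium ionophore (PMA/I), which was higher with IL-2 than without it, so that difference is given as a description with no test. All 4 passed the filter on low values, a value over 1 TPM (transcripts per 1000000) in at least 1 of 12 libraries, and 12442 genes passed it in all. Each of them reached its highest value in a PMA/I library. 1810009J06Rik and Gm2663 passed the filter only through such libraries, so their passing is itself tied to the values that chose them. Gm5907 and Gm10684 also exceeded 1 TPM in a resting library.

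Spleen CD4 T cells of mice labelled C57BL/6 C42, a line that carries a transgenic fragment of the human IL3/CSF2 locus in every group, were activated with 2 µg/ml concanavalin A for 40 h, after which IL-2 at 50 U/ml was given (2 days by the labels). TB IL-2 cells stayed in IL-2, TB IL-2nil cells were without it for 16 h, and TB+ IL-2 and TB+ IL-2nil cells received PMA/I after the same cultures, with 3 libraries in each of the 4 groups. The age of the mice is not given in the sources used here, nor is it said whether replicates were separate mice, so P-values measure only the spread between these libraries. IL-2 is the growth factor of recently activated T cells and acts through its receptor on STAT5, while PMA and calcium ionophore replace signals from the T cell receptor and switch on AP-1 and NFAT.

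A pair of libraries went against their labels. In the study's supplementary list of regulated genes, the values under TB IL-2nil replicate 3 are those of the library labelled TB+ IL-2 replicate 3, and the reverse. Over 1381 genes of that list, the crossed libraries matched at least 99.9% of the values after quantile normalization (within 0.1% of the value plus 0.0001 TPM), and the libraries of the same label matched 0.1%. Il2, the IL-2 gene that PMA/I switches on, was at 1368 FPKM (fragments per kilobase of transcript and 1000000 mapped fragments) in the library labelled TB IL-2nil replicate 3 and at 0.29 FPKM in the library labelled TB+ IL-2 replicate 3. Both libraries are placed below in each other's group, and differences are also given without both and as labelled. The 6 T cell genes of a marker list summed to 593 to 744 FPKM over the libraries, the 4 B cell genes to 0.912 to 8.12, the 2 CD8 genes to 2.15 to 12.1 and the 5 myeloid genes to 0.5 to 1.65. B cell genes were lower after PMA/I and with IL-2, at 2.56 to 3.96 FPKM in TB IL-2, 6.28 to 8.12 in TB IL-2nil, 0.912 to 1.06 in TB+ IL-2 and 1.37 to 3.39 in TB+ IL-2nil, and their part in the results was not tested.

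The 4 genes are of 2 kinds. By RefSeq, 1810009J06Rik and Gm2663 are protein-coding, and both belong to the trypsinogen genes, whose products are known as digestive protease precursors of the pancreas. In mouse, these genes lie inside the T cell receptor beta locus. Gm5907 and Gm10684 are long non-coding RNAs, that is, transcripts with no known protein, and no role is given for them here (the older GENCODE M1 annotation has Gm10684 as protein-coding and holds no Gm5907). In the GENCODE M1 annotation of mm9, 1810009J06Rik (ENSMUSG00000036996.5) lies on the plus strand of chromosome 6 from 40914768 to 40918437, and Gm2663 (ENSMUSG00000090480.1) on the minus strand from 40945821 to 40949478. Their 3′ ends face each other across 27383 bp, and each has 5 exons of the same lengths. Gm10684 lies on the minus strand of chromosome 9 from 44915259 to 44943689 and has 3 exons. Gm5907 lies on chromosome 8 between Tdrp and Erich1 in RefSeq order.

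The RefSeq promoter sequences of Gm2663 and Gm10684 (GRCm38.p6, minus strand, the 250 bases before the annotated start) are shown because PMA/I and IL-2 act through factors with known binding motifs. Capitals mark matches on either strand to the AP-1 motif TGANTCA, the NFAT core GGAAA, the STAT motif TTCNNNGAA and the TATA box TATAAA, and no match overlaps another.
Gm2663, chr6:40999480-40999729: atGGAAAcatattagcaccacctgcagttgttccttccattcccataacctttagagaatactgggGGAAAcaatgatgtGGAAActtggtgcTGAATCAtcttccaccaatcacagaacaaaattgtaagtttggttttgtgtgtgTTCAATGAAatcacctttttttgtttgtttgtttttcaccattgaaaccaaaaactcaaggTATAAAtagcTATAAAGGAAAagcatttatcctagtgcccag
Gm10684, chr9:45135607-45135856: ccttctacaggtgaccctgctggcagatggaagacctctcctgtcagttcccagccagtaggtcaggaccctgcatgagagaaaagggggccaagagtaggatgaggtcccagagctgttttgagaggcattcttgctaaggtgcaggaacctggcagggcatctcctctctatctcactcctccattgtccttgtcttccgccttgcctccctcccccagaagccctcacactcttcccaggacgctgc

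The Gm2663 window held 1 AP-1 match, 4 NFAT cores, 1 STAT match and 2 TATA boxes, the nearer of them 32 to 27 bases before the start. Of 32851 reference promoters, 6.7% held an AP-1 match, 55.6% an NFAT core, 7.0% a STAT match and 12.4% a TATA box. The Gm10684 window held none of the 4, at a GC content of 57.2% against 36.4% for Gm2663. A match is a description of the letters and no evidence of binding.

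All 4 genes were most abundant in TB+ IL-2, but they differed in what they did in the other groups. Gm5907 was at most at 1.49 FPKM and 1810009J06Rik at 0.15 FPKM wherever IL-2 or PMA/I was missing. Gm2663 was listed at 0 in all 6 resting libraries and was present after PMA/I both with and without IL-2. Gm10684 was already higher with IL-2 at rest, and was higher after PMA/I also without IL-2. The wording that IL-2 is needed for induction therefore holds for neither Gm2663 nor Gm10684 in these libraries, since both were higher after PMA/I than at rest without it. Without IL-2, the means of Gm5907 and 1810009J06Rik were also higher after PMA/I than at rest, but their groups overlapped.

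**Figure D1:**
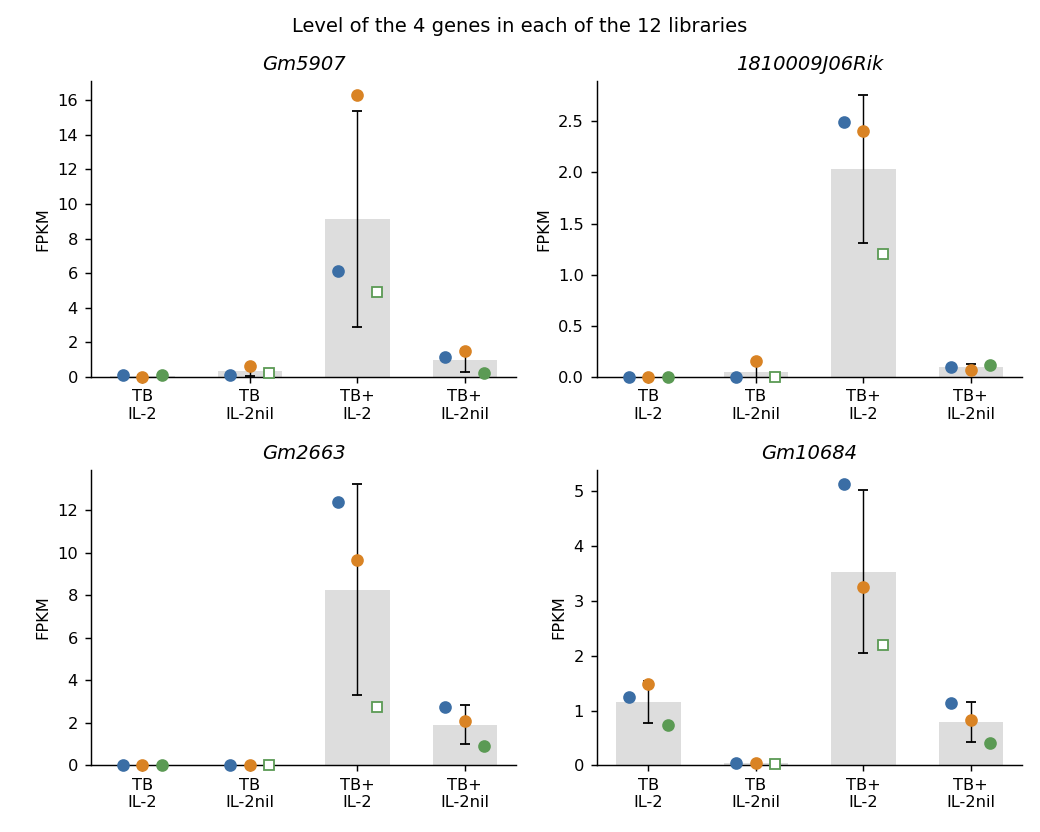
FPKM of each gene (vertical axis, linear) in the 4 groups, with replicate 1 in blue, 2 in orange and 3 in green. Grey bars are means, error bars the SD of 3 libraries, and open squares the 2 libraries placed in the group opposite to their label. Gm2663 sits at 0 in all 6 resting libraries, and Gm10684 at 0.74 to 1.49 FPKM in TB IL-2.

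Gm5907, the RNA from chromosome 8, was at 6.13, 16.3 and 4.93 FPKM in TB+ IL-2 replicates 1 to 3 (9.14 ± 6.28, SD, n = 3). In TB+ IL-2nil it was at 1.13, 1.49 and 0.228 FPKM (0.95 ± 0.65, SD, n = 3). The groups did not overlap, and TB+ IL-2 replicate 2 stood far above the other libraries. At rest Gm5907 was at 0.0976, 0 and 0.0908 FPKM with IL-2 and at 0.102, 0.601 and 0.225 FPKM without it. All resting libraries were below the TB+ IL-2 libraries, while TB+ IL-2nil replicate 3 lay inside the range of TB IL-2nil. For ratios, libraries were scaled to a common upper quartile of TPM, and the mean scaled TPM after PMA/I was 6.74 times as high with IL-2 as without (8.55 times without both exchanged libraries). Within replicates 1 to 3 the ratio was 3.64, 8.38 and 14.9. Without IL-2, the mean scaled TPM was 3.67 times as high after PMA/I as at rest, with overlapping groups. Without both exchanged libraries that ratio was 3.18, and as labelled it was 0.8. In such bulk RNA, fewer cells that express a gene and less of its RNA per cell cannot be told apart.

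1810009J06Rik, the first of the trypsinogen genes, was at 2.49, 2.41 and 1.2 FPKM in TB+ IL-2 (2.04 ± 0.723, SD, n = 3). In TB+ IL-2nil it was at 0.1, 0.062 and 0.118 FPKM (0.0932 ± 0.0284, SD, n = 3). No library of one group came near the other. The resting libraries were listed at 0, apart from TB IL-2nil replicate 2 at 0.15 FPKM, the library with the lowest relative depth (0.407 of the median library, from the step size of low values). The mean scaled TPM after PMA/I was 15.8 times as high with IL-2 as without, and 19.8 times without both exchanged libraries.

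Gm2663, the other trypsinogen gene, was at 12.4, 9.64 and 2.75 FPKM in TB+ IL-2 (8.26 ± 4.97, SD, n = 3). In TB+ IL-2nil it was at 2.74, 2.07 and 0.922 FPKM (1.91 ± 0.92, SD, n = 3). The lowest library with IL-2, the one labelled TB IL-2nil replicate 3, was at the level of the highest without it. After scaling these libraries were at 7.11 and 13.2 TPM, so the groups overlapped. The mean scaled TPM was 3.08 times as high with IL-2, and 4.19 times without both exchanged libraries. Within each replicate number TB+ IL-2 was higher, by 3.04, 3.57 and 2.05 times.

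Gm10684, the RNA from chromosome 9, was at 5.13, 3.25 and 2.2 FPKM in TB+ IL-2 (3.53 ± 1.48, SD, n = 3). In TB+ IL-2nil it was at 1.14, 0.834 and 0.405 FPKM (0.793 ± 0.37, SD, n = 3). At rest it was at 1.25, 1.49 and 0.74 FPKM with IL-2 (1.16 ± 0.384, SD, n = 3) and at 0.0514, 0.0503 and 0.0186 FPKM without it (0.0401 ± 0.0186, SD, n = 3). In either pair the groups did not overlap, while the TB IL-2 range overlapped that of TB+ IL-2nil. The mean scaled TPM with IL-2 over that without was 21.8 at rest and 3.12 after PMA/I. PMA/I over rest was 3.37 with IL-2 and 23.7 without it, so the larger ratio was in the cells without IL-2. Without both exchanged libraries these 4 ratios were 17.1, 3.85, 4.17 and 18.5. The ratios over TB IL-2nil divide by values near 0 (0.0186 to 0.0514 FPKM), so their size is imprecise. On the log2(TPM + 1) scale given below, the PMA/I responses with and without IL-2 lay closer together.

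The order of the 4 genes changed with the group. Per length, Gm10684 was the most abundant in all 3 TB IL-2 libraries and Gm5907 in all 3 TB IL-2nil libraries. Gm2663 led in all 3 TB+ IL-2nil libraries. In TB+ IL-2, Gm2663 led in replicate 1 and Gm5907 in replicates 2 and 3, and these genes' ranges overlapped. Among all listed genes there, Gm5907 stood at the 76.2 to 90.5 percentile and Gm2663 at 70.3 to 88.6. Gm10684 stood at 68.3 to 79.4 and 1810009J06Rik at 63.8 to 71.9. Of the 24439 names, 10127 to 10275 were at 0 in the TB+ IL-2 libraries, so any gene above 0 already ranks above those.

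The resting comparison, TB IL-2 with TB IL-2nil, uses libraries that did not choose the genes and asks whether IL-2 withdrawal alone moved them. Gm10684 was higher with IL-2, by 1.81 on the log2(TPM + 1) scale (SE 0.40), and was called at an adjusted P of 0.00497 in limma (a call needs a change above 3-fold and a P under 0.05 after Benjamini-Hochberg adjustment over 12442 genes). Beside it, 4.69% of all genes tested were called higher. Its groups did not overlap, as for 22.8% of all genes in that direction. Without both exchanged libraries the difference was 1.76 and called (adjusted P = 0.0148 in limma, beside 4.93% of all genes), and as labelled it was 0.93 and not called (adjusted P = 0.762, beside 0.0563%). Without TB IL-2 replicate 2 it was 1.58, just under 3-fold, at an adjusted P of 0.0245 in limma. Gm5907 differed by -0.79 (95% interval -2.02 to 0.44, adjusted P = 0.284 in limma). All 3 TB IL-2 libraries were below all 3 TB IL-2nil libraries for Gm5907 (the nearest at 0.0976 and 0.102 FPKM), as for 30.4% of all genes. Gm2663, listed at 0 in all resting libraries, gave no difference to test. 1810009J06Rik, listed at 0 in all but 1 resting library, was not called, and its difference rests on that library. Over 16 alternatives its difference was -0.90 to 0.00, with a lowest adjusted P of 0.263 in limma. These fold changes understate those of low genes, because of the added 1 TPM.

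On the same scale, the difference between TB+ IL-2 and TB+ IL-2nil was 2.48 for Gm5907 (SE 0.56), 2.29 for 1810009J06Rik (SE 0.28), 1.37 for Gm2663 (SE 0.53) and 1.39 for Gm10684 (SE 0.40). This contrast chose the genes, so no call is given for them. All but Gm2663 had groups with no overlap in scaled TPM, beside 18.9% of all genes, and nothing is read from that count. Without both exchanged libraries the differences were 2.90, 2.65, 2.08 and 1.75. As labelled they were 1.50, 1.61, 0.36 and 0.51. Leaving out only the library labelled TB IL-2nil replicate 3 also gave 2.08 for Gm2663 and 1.75 for Gm10684.

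The PMA/I responses share these libraries and are likewise descriptions, with no call. With IL-2, TB+ minus TB was 4.41 for Gm5907 (SE 0.56), 2.76 for 1810009J06Rik (SE 0.28), 4.44 for Gm2663 (SE 0.53) and 1.44 for Gm10684 (SE 0.40). Without IL-2 it was 1.14 for Gm5907 (SE 0.56), 0.26 for 1810009J06Rik (SE 0.28), 3.07 for Gm2663 (SE 0.53) and 1.85 for Gm10684 (SE 0.40). Without both exchanged libraries the responses were 4.82, 3.12, 5.15 and 1.79 with IL-2 and 1.06, 0.16, 3.07 and 1.80 without it. As labelled they were 3.42, 2.08, 3.43 and 0.55 with IL-2 and 0.15, -0.42, 2.06 and 0.97 without it.

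**Figure D2:**
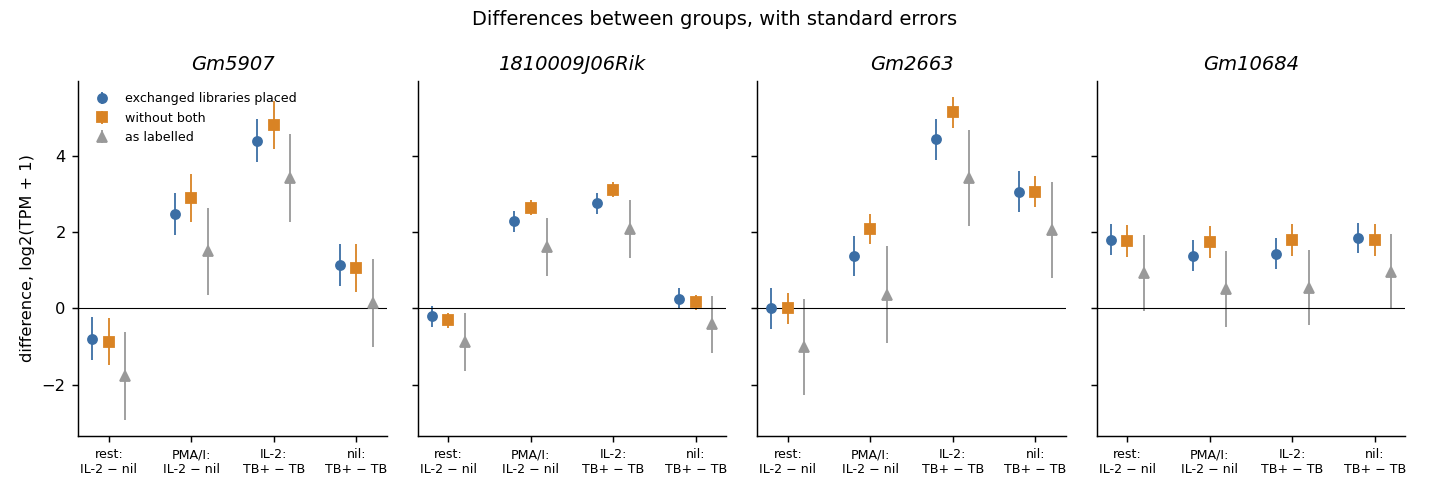
Difference of each gene on the log2(TPM + 1) scale in 4 comparisons (IL-2 minus IL-2nil at rest and after PMA/I, then TB+ minus TB with and without IL-2), with standard errors from limma. Circles have the exchanged libraries placed, squares leave both out, and triangles follow the labels. Placed values run from -0.79 to 4.44, and Gm10684 is the gene with a called resting difference (1.81).

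The values of 1810009J06Rik and Gm2663 cannot be read as those of separate genes without care, since the genes are near-identical copies. Their GENCODE M1 transcripts are both 870 nt long and differ at 6 positions (99.3% identity), with one identical stretch of 450 nt. Of the differences, 4 are in the 744 nt of coding sequence. With the base of 1810009J06Rik first, the position counted from 1 at the 5′ end of the transcript, and the base of Gm2663 last, they are A33T, C34T, G184A and C635T. Fragments from the identical stretches fit both genes, and how they were assigned is not given in the sources used here. The tables gave 1810009J06Rik as 20.1%, 25% and 43.7% of the Gm2663 FPKM in TB+ IL-2, and as 3.65%, 3% and 12.7% in TB+ IL-2nil. The share was higher in every library with IL-2, and whether this split is of the genes or of the assignment was not tested.

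Summed, which avoids the split, the pair was at 14.9, 12.1 and 3.95 FPKM in TB+ IL-2 and at 2.84, 2.13 and 1.04 FPKM in TB+ IL-2nil. The sums did not overlap in FPKM. In scaled TPM they were 48, 36.9 and 10.2 against 13.7, 8.53 and 3.91, and the groups overlapped through the library labelled TB IL-2nil replicate 3.

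The other 11 trypsinogen genes of the list were at or near 0. They include Prss1, Prss2 and Prss3, trypsinogens of the pancreas, and 2210010C04Rik, the next of the family after Gm2663. Their highest value in any library was 0.313 FPKM, for Prss2 in TB IL-2nil replicate 2, and their sum was 0.13 to 0.282 FPKM in TB+ IL-2 and 0.0341 to 0.266 in TB+ IL-2nil. Only Prss2 passed the filter, and none of its 4 differences was called in limma (none at an unadjusted P under 0.05 either). Coding sequence identity of the pair to the other listed genes with a transcript was 51.9% to 77.7%, and the longest identical stretch was 21 nt. Of 17 markers of pancreatic acinar cells, 14 were at 0 in every TB+ IL-2 library. The sum of all 17 was 0.138 to 0.409 FPKM there and 0.105 to 0.152 in TB+ IL-2nil. At rest it was 0.613 to 1.04 in TB IL-2 and 0.489 to 0.924 in TB IL-2nil.

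**Figure D3:**
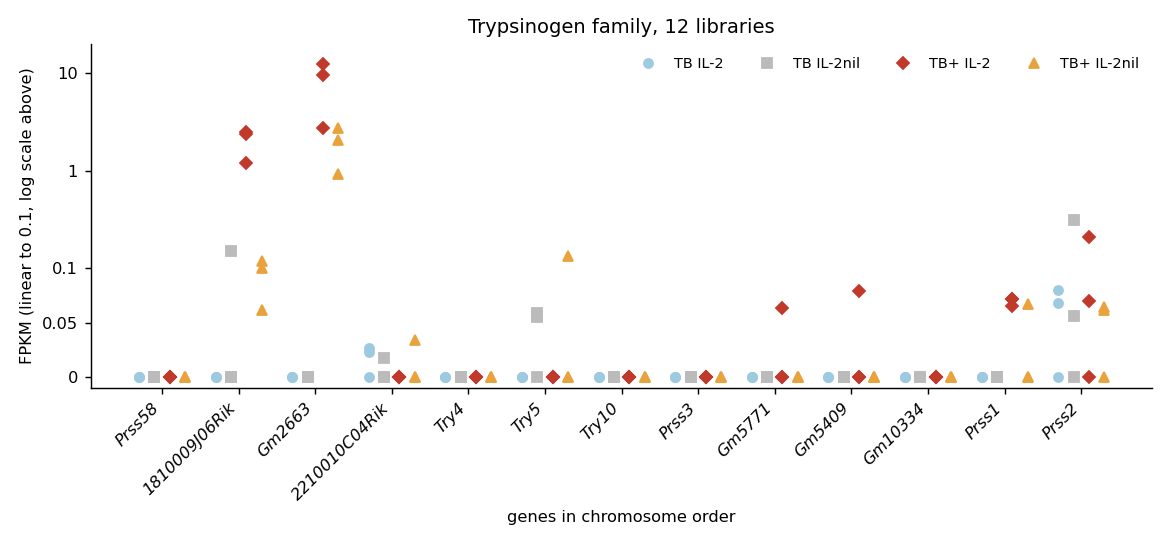
FPKM of the 13 listed trypsinogen genes in chromosome order (horizontal axis) in all 12 libraries. The vertical axis is linear up to 0.1 and logarithmic above, and each point is 1 library, marked by group. Only 1810009J06Rik and Gm2663 exceed 0.313 FPKM.

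The trypsin pathway list held the enzyme that activates trypsinogen, trypsin inhibitors, Ctsb and the protease-activated receptors, and 5 of its 9 genes were tested. F2r, the thrombin receptor, rose with PMA/I without IL-2, from 11.4 to 21.5 FPKM at rest to 36.2 to 86.2, by 1.97 (SE 0.43, adjusted P = 0.00222 in limma). With IL-2 it was also higher after PMA/I, at 42.5 to 71.1 FPKM against 20.5 to 36.8 at rest, but not called. Its response with IL-2 minus without was -0.88 (SE 0.61, adjusted P = 0.417 for the interaction in limma). F2r was the only gene of the list called in any of the 4 comparisons with the exchanged libraries placed, beside 7.78% of all genes called higher for PMA/I without IL-2. F2rl1, the receptor cut by trypsin, was at 2.1 to 5.21 FPKM in TB IL-2 and 4.53 to 14.1 in TB IL-2nil, a difference of -1.48 (SE 0.39, adjusted P = 0.0123) that stayed under 3-fold (without both exchanged libraries it was -1.91 and called, adjusted P = 0.00659), and at 3.02 to 3.58 and 2.72 to 4.48 FPKM after PMA/I. At rest F2rl2 and F2rl3, also of the receptor family, went the other way. Both were at an adjusted P under 0.05 in limma but under 3-fold, beside 2156 of 12442 genes higher at such a P. Without both exchanged libraries 1 gene of the list was higher at such a P. F2rl2 was at 5.94 to 12.5 FPKM in TB IL-2 and 1.96 to 3.81 in TB IL-2nil. F2rl3 was at 2.51 to 6.41 and 0.935 to 1.43 FPKM. Between TB+ IL-2 and TB+ IL-2nil no gene of the list was called in limma, with 3 of 5 at an unadjusted P under 0.05, beside 3.62% of all genes called and 35.2% at such a P.

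The values of Gm10684 ran alongside those of Jaml, an adhesion molecule gene on the opposite strand, called Amica1 in GENCODE M1. Jaml lies on the plus strand of chromosome 9 from 44887266 to 44916613 in mm9, and its last exon (44915462 to 44916613) overlaps the last exon of Gm10684 (44915259 to 44915858). The shared part is 397 of the 2203 exonic bases of Gm10684, or 18%. These exons are of GENCODE M1, while the FPKM were quantified on RefSeq models, for which the share was not computed. Jaml was at 6.6, 8.38 and 5.1 FPKM in TB IL-2, at 0.35, 0.313 and 0.264 in TB IL-2nil, at 25.7, 18.8 and 9.38 in TB+ IL-2 and at 5.22, 5.17 and 2.75 in TB+ IL-2nil. Of all genes tested it had the highest Pearson correlation with Gm10684 (r = 0.98 over 12 libraries, a description). The Gm10684 FPKM was 7.0% to 23.5% of the Jaml FPKM in the same library, with a median of 16.7%, while the Jaml level ranged from 0.264 to 25.7.

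The library kit keeps strand, but the methods give alignment with default parameters, and whether quantification used strand is not given in the sources used here. Without strand, fragments of Jaml and of Gm10684 over the shared bases cannot be told apart, and every Gm10684 value above carries that limit. The part of Jaml fragments in those values was not tested. Scn2b, a sodium channel subunit gene inside an intron of Gm10684, shares no exonic base with it and was at most at 0.0698 FPKM.

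**Figure D4:**
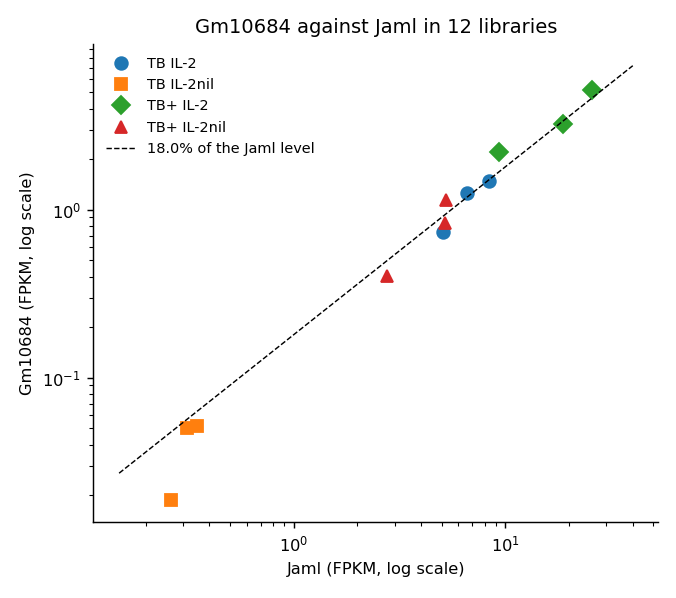
FPKM of Gm10684 (vertical) against Jaml (horizontal) in the 12 libraries, both on log scales, marked by group. The dashed line is 18% of the Jaml level, the share of Gm10684 exonic bases that Jaml also covers in GENCODE M1. The FPKM are of RefSeq models, and the libraries lie between 7.0% and 23.5%.

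At rest Jaml was higher with IL-2 by 3.13 (SE 0.44, adjusted P = 0.000429 in limma), and without IL-2 it rose with PMA/I by 3.14 (SE 0.44, adjusted P = 0.00011). With IL-2 its PMA/I difference was 1.44 (SE 0.44, adjusted P = 0.0252) and after PMA/I its IL-2 difference was 1.43 (SE 0.44, adjusted P = 0.0396), both under 3-fold. Without both exchanged libraries these were 1.93 (adjusted P = 0.00739) and 1.92 (adjusted P = 0.0213), and both were called. The next genes on that side, Mpzl3 and Mpzl2, which encode myelin protein zero-like membrane proteins, rose with PMA/I in both cultures. Mpzl3 rose by 2.70 with IL-2 (SE 0.28, adjusted P = 5.49e-05) and by 2.08 without it (SE 0.28, adjusted P = 8.94e-05), and Mpzl2 by 2.54 (SE 0.20, adjusted P = 7.69e-06) and 2.01 (SE 0.20, adjusted P = 1.28e-05). At rest neither was called, with IL-2 differences of 0.02 for Mpzl3 (95% interval -0.60 to 0.63) and -0.06 for Mpzl2 (-0.50 to 0.38). Cd3e and Cd3d, the T cell receptor subunit genes further along, were not called in any of the 4 comparisons.

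**Figure D5:**
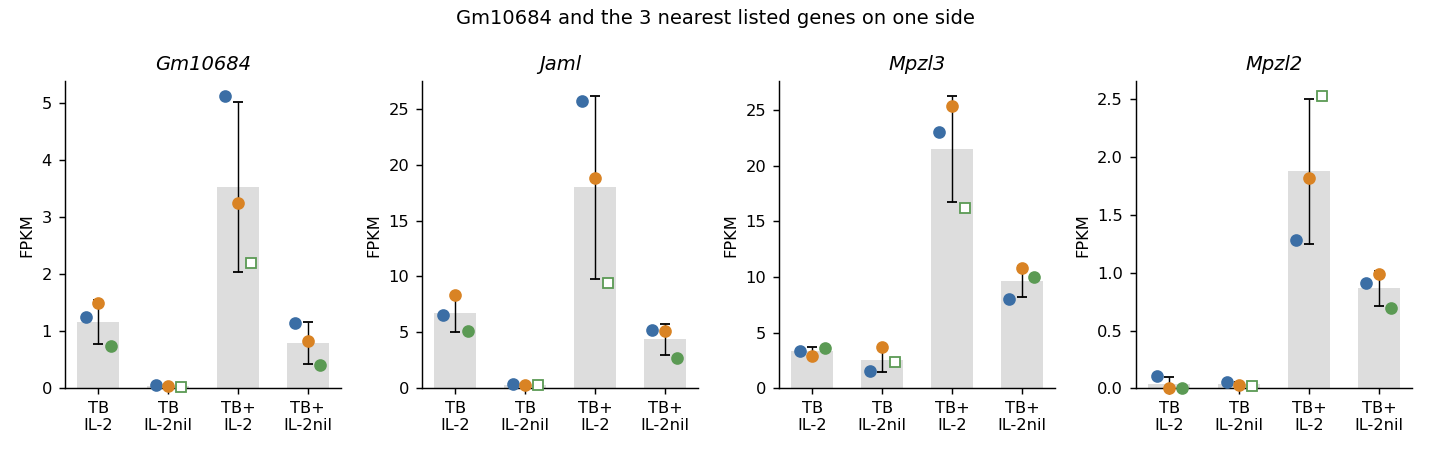
FPKM of Gm10684, Jaml, Mpzl3 and Mpzl2 by group, drawn as for the 4 genes, with means, SD of 3 libraries and open squares for the exchanged libraries. Jaml is at 0.264 to 0.35 in TB IL-2nil and Gm10684 at 0.0186 to 0.0514, whereas the Mpzl3 means are 3.33 in TB IL-2 and 2.54 in TB IL-2nil.

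The 8 tested neighbours of Gm5907 went both ways with PMA/I. Without IL-2, 3 were called lower and 0 higher (1 higher without both exchanged libraries), beside 1328 and 968 of 12442 genes. At an adjusted P under 0.05 in limma, 5 were lower and 2 higher there, beside 5113 and 2501 genes. Champ1 was at 2.7 to 4.48 FPKM at rest and 6.55 to 11.1 after PMA/I in those cultures. Tdrp, beside Gm5907, was at 9.44, 0.929 and 2.59 FPKM in TB IL-2 and at 46.5, 26.8 and 12.8 in TB IL-2nil. At rest Tdrp differed by -3.37 on the log2 scale (SE 0.66, adjusted P = 0.00268 in limma). After PMA/I it was at 0.444 to 1.94 FPKM in all 6 libraries, and without IL-2 it fell by 4.66 (SE 0.66, adjusted P = 0.000127). Fbxo25, the next gene and part of a ubiquitin ligase, fell by 3.05 without IL-2 (SE 0.26, adjusted P = 4.76e-06). Kbtbd11, on the other side, fell by 2.92 with IL-2 (SE 0.20, adjusted P = 2.68e-06) and by 2.03 without it (SE 0.20, adjusted P = 1.13e-05). None of the 8 tested neighbours of Gm5907 was called between TB+ IL-2 and TB+ IL-2nil, with 4 at an unadjusted P under 0.05 (35.2% of all genes).

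Over all members, 30 other genes stood within 5 places, and 15 were tested. At rest 1 was called higher with IL-2 and 1 lower (7.42% of all genes were called in either direction). With PMA/I 2 were called higher and 1 lower with IL-2 (7.04% of all genes), and 3 higher and 3 lower without it (18.5%). Between TB+ IL-2 and TB+ IL-2nil, the contrast that chose the 4 genes, none of the 15 was called in limma (8 at an unadjusted P under 0.05, beside 35.2% of all genes with such a P and 3.62% called), with a median difference of 0.20 against -0.04 over all genes. All 12 calls among the neighbours and the trypsin pathway genes were also made without both exchanged libraries, and none was made as labelled. None of the 9 other neighbours of either trypsinogen gene passed the filter.

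Other genes had patterns over the 12 libraries like those of the members, named by the highest Pearson correlation of log2(TPM + 1), over points that share libraries and groups, the TB+ IL-2 libraries that chose the members included. For Gm5907 the genes were Fermt2 (r = 0.968), Slc9b2 (0.945), Oxsm (0.925), Dhrs9 (0.924) and Zfp948 (0.923). For 1810009J06Rik they were Ccl7 (0.976), Oxsm (0.971), Il25 (0.941), Rcan1 (0.938) and 1700016C15Rik (0.922), with the chemokine gene Ccl7 at 0 in all resting libraries and at 0.727 to 1.6 FPKM in TB+ IL-2. For Gm2663 they included Nts (0.986), Fbxo33 (0.983), Il31 (0.982) and Slc9b2 (0.981). Il31, a cytokine of activated helper T cells, was at 0 in all resting libraries, at 124 to 643 FPKM in TB+ IL-2 and at 32.5 to 111 FPKM in TB+ IL-2nil, so it too was present after PMA/I without IL-2. For Gm10684, after Jaml came Zwint (0.958), Rai14 (0.955), Ssr4 (0.953) and Top1mt (0.946). Among the members, r ran from 0.692 for Gm5907 with Gm10684 to 0.913 for Gm5907 with 1810009J06Rik.

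Il31 also stands among 6 cytokine genes (Il3, Csf2, Il31, Il24, Ifng, Il13) listed as dependent on IL-2, a list that the study drew from these libraries. All 6 were called higher after PMA/I in both cultures, beside 3.94% of all genes with IL-2 and 7.78% without it. Between TB+ IL-2 and TB+ IL-2nil 1 of the 6 was called higher, beside 3.21% of all genes, with a median difference of 1.52. The study listed them at a smaller fold change than the 3-fold of a call here, so the counts do not test its list. It also measured some of them by quantitative PCR, after IL-2 withdrawal and with a JAK inhibitor. In the RNA-Seq comparison of TB+ IL-2 with TB+ IL-2nil, 3 were called without both exchanged libraries (2.39% of all genes, median 1.99). As labelled, limma called none there (0.104% of all genes, median -1.59, 0 of 6 at an unadjusted P under 0.05) and none for PMA/I in either culture (2 of 6 at such a P with IL-2 and 0 without it).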

How the data were processed

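The authors sequenced rRNA-depleted RNA from 12 libraries, prepared with a strand-keeping kit. Per the submitters' notes and the methods, reads were trimmed with Trimmomatic 0.32, aligned to mm9 with HISAT2 2.1.0 and quantified on RefSeq models with StringTie 1.3.3. The deposited values are FPKM, 1 table a library. The methods name TPM, which the planned tests assumed, but the tables name FPKM and sum to 193815 to 420487. Read counts are not used here, so depth is known only relatively (0.407 to 1.24 of the median library), which limits the precision of values near 0.

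Here each library's FPKM were rescaled to sum to 1000000 (TPM), a gene stayed in if any library exceeded 1 TPM, and the 75th percentiles of the libraries were made equal. The log2(TPM + 1) values of the 4 groups were fitted in limma 3.58.1 (R 4.3.3) without a block, and the fit was tested on simulated data. A call needed a change above 3-fold and, after Benjamini-Hochberg adjustment, a P under 0.05. Same-numbered libraries deviated together in all 18 pairs across groups (r = 0.101 to 0.531, over 0.1 in each), and pairs of different numbers were not compared. The replicate numbers of the labels were used as pairs only for ratios within replicates and in the alternative with a replicate block. The SE, P-values and calls of the main fit do not use the pairing. For the members, P-values and calls were taken at rest only, and other differences are given with SE as descriptions.

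Members and lists were chosen with earlier results of these data known. Named genes were the members, listed genes that were called or set a range, 5 neighbours on each side, and the 5 genes of highest correlation with each member, of which 1 is not reported here. Neighbours came from GENCODE M1 (mm9), or from RefSeq order for Gm5907, which was matched by symbol in RefSeq only. Of the 4 members, 2 matched a RefSeq promoter. Python 3.11.15, Biopython 1.88 and matplotlib 3.10.9 were used for the rest.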

Additional observations from a re-analysis of the deposited data

Results flagged for a closer look

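The response of Fbxo25 to PMA/I differed between cultures with and without IL-2. It fell less with IL-2, by a difference of 1.86 between the log2 responses (SE 0.36, adjusted P = 0.0264 for the interaction in limma), and 4.23% of all genes had an adjusted P under 0.05 in that test. In FPKM it went from 1.73 to 4.56 at rest to 0.839 to 1.47 with IL-2, and from 4.49 to 6.44 to 0.238 to 0.437 without it. Without both exchanged libraries the difference was 1.89 at an adjusted P of 0.0834, when only 4 of 12442 genes passed. The interaction was not tested for the 4 members, since their PMA/I libraries chose them.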

How the results depend on the processing

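The placement of the 2 exchanged libraries decided most. With the libraries as labelled, the genes called fell from 923 to 12 at rest, from 451 to 15 between TB+ IL-2 and TB+ IL-2nil, from 876 to 44 for PMA/I with IL-2 and from 2296 to 255 for PMA/I without it. Gm10684 at rest was then 0.93, the after-PMA/I IL-2 differences were 1.50 for Gm5907, 1.61 for 1810009J06Rik, 0.36 for Gm2663 and 0.51 for Gm10684, and the PMA/I response of 1810009J06Rik without IL-2 turned from 0.26 to -0.42. With a pseudocount of 0.1 the calls were 691 between TB+ IL-2 and TB+ IL-2nil, 1470 for PMA/I with IL-2 and 3472 without it, and 1810009J06Rik between TB+ IL-2 and TB+ IL-2nil was 3.60 (2.82 with 0.5), since a smaller pseudocount lowers values near 0. The cause of the other changes was not tested. The resting difference of Gm10684 had adjusted P-values of 0.000491 to 0.0258 in limma over all alternatives except the labelled placement. With no scaling the median of all genes moved by 0.27 between TB+ IL-2 and TB+ IL-2nil and by -0.40 for PMA/I without IL-2, and with quantile normalization by 0.12 and 0.24 for PMA/I with and without IL-2. Relative to that median, the difference of Gm2663 between TB+ IL-2 and TB+ IL-2nil was 1.41, 1.50 with no scaling and 1.23 with quantile normalization, and that of Gm10684 was 1.44, 1.48 and 1.29.

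Leaving out 1 library gave 0.91 to 2.08 for Gm2663 and 1.04 to 1.75 for Gm10684 in that comparison, the highest without the library labelled TB IL-2nil replicate 3 and the lowest without TB+ IL-2 replicate 1 and TB+ IL-2nil replicate 3. Of the trypsinogen, trypsin pathway and neighbouring genes, with alternatives chosen after seeing the data, 2, 0, 3 and 7 were called in the 4 comparisons, and 0 in each as labelled. Between TB+ IL-2 and TB+ IL-2nil 1 was called with a pseudocount of 0.1 or 0.5 and without both exchanged libraries, and 2 with no scaling. Without both, 5 were called for PMA/I with IL-2. Leaving out 1 library gave 2 to 4, 0 to 1, 3 to 5 and 7 to 8. The difference between the Fbxo25 responses lost its adjusted P under 0.05 without 7 of the 12 libraries in turn. With the replicate block, the number of genes called was 956, 488, 894 and 2303, and the resting call of Gm10684 was also made (1.81, adjusted P = 0.000491 in limma).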
